A study of Mus musculus with 69 samples.

Results

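The comparison described here set memory CD8+ T cells that kept 1 Stat5b allele against memory CD8+ T cells that kept 1 Stat5a allele, after both had been cultured with IL-15. It rests on 4 libraries, 2 of AAB mice and 2 of BBA mice, out of the 69 samples of the series, and on all genes of the count table: 24309 symbols, of which 9856 passed the filter on low counts and were tested. AAB mice are Stat5a-/- Stat5b+/- and BBA mice are Stat5a+/- Stat5b-/-, so that both genotypes have lost 3 of the 4 Stat5 alleles and differ in which paralog remains. The question was which genes and pathways a single allele of one paralog sustained at a higher level than a single allele of the other. WT mice (Stat5a+/+ Stat5b+/+) gave 2 further libraries, which served to show where the normal level lay.

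The cells were sorted from pooled lymph nodes and spleens by surface markers that include high CD44 (Tcm, the memory state), between 20000 and 100000 cells at a time, and the labels give 12 to 16 hours of culture. For cells without cytokine the sources differ, as a protocol shared by all labels gives the same culture and the study's methods name cells processed without culture, so that IL-15 and culture cannot be told apart in comparisons with them. Poly(A)+ RNA was sequenced. The deletions are in the germline, so the cells had developed in animals whose other tissues carried the same alleles, and the study's methods describe adult mice, with separate mice as replicates over several trials. The labels do not say which libraries shared a trial. The same comparison in Tcm without cytokine, in naive cells (Tnv) with IL-15 and in effector cells (Tem, also high in CD44) with IL-15, each with 2 libraries per genotype, is used where it shows how the IL-15 result in Tcm differs.

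IL-15 is a cytokine on which memory CD8+ T cells depend for survival and slow renewal. It is presented to IL-2Rβ and the common gamma chain, the kinases JAK1 and JAK3 phosphorylate STAT5A and STAT5B, and the phosphorylated dimers bind GAS motifs in DNA and change transcription of nearby genes. Known targets include feedback inhibitors such as Cish, the survival gene Bcl2 and genes for growth and metabolism.

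Depth was 15261927 and 16065891 counts on genes in the AAB libraries, 9469916 and 12214284 in the BBA libraries, and 17683997 and 16480206 in the WT libraries, so low genes were measured with less precision in BBA. Cd8a lay at 1784 and 1618 CPM in AAB, 1288 and 1193 in BBA, and 1743 and 1522 in WT (CPM, counts scaled to a common TMM-normalized library size), a level that fits the sort. The 6 globin genes among the erythroid markers were at 0 in all 6 libraries. Summed B cell markers (8 of 10 in the table) were 99.9 and 267 CPM in AAB, 277 and 555 in BBA and 125 and 237 in WT, and summed myeloid markers (12 of 12) were 32.5 and 84.9, 101 and 95.7, and 38.1 and 37.2 CPM. Both sums were thus higher in BBA than in AAB, but members of the myeloid sum did not all move together. S100a8, at 3.68 and 11.9 CPM in AAB and 0.205 and 3.23 in BBA, ran against the sum. So did S100a9, at 5.46 and 16.8 CPM in AAB and 0 and 2.98 in BBA. The part of both sums in the results below was not tested, and in bulk samples more cells of a type and more RNA per cell cannot be told apart.

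Stat5a and Stat5b lie side by side on chromosome 11 of GRCm38, Stat5a at 100859351 to 100885169 on the plus strand and Stat5b at 100780731 to 100850724 on the minus strand. Stat5a was at 2.70 and 2.65 CPM in AAB, 43.4 and 45.5 in BBA, and 82.6 and 90.9 in WT, so BBA held 50% and 52.5% of the WT mean and AAB 3.11% and 3.06%. This is the pattern the genotypes name. Stat5b was at 99.0 and 95.2 CPM in AAB, 67.7 and 76.8 in BBA, and 176 and 211 in WT. AAB held 51.1% and 49.2% of the WT mean, and BBA, labelled as lacking both alleles, still gave 35% and 39.7%. AAB and BBA did not overlap, but the log2 fold change of AAB over BBA was 0.42 (standard error 0.12, adjusted p = 0.0634) and Stat5b was not called. Whether these BBA reads come from the parts of the gene that a deletion leaves, or from reads that fit both paralogs, was not tested, so Stat5b counts give no check of the BBA label while Stat5a counts do. Per kilobase of merged exons (7133 bases for Stat5a, 5539 for Stat5b), the paralog that remained reached 17.9 and 17.2 CPM per kilobase for Stat5b in AAB and 6.08 and 6.38 for Stat5a in BBA.

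Of the 9856 genes tested, 312 (3.17%) were called higher in AAB and 266 (2.7%) higher in BBA, 578 (5.86%) in all. Calls required a difference above 1.5-fold and an adjusted p under 0.05 in the quasi-likelihood test of edgeR (Benjamini-Hochberg adjustment over all genes tested). Log2 fold changes are AAB over BBA throughout, so that a value above 0 means a higher level in AAB cells than in BBA cells. At an unadjusted p under 0.05 there were 2898 genes (29.4%). The median log2 fold change of calls was 0.84 for those higher in AAB and -1.02 for those higher in BBA, and that of all genes tested was 0.00. More than 2-fold, 106 calls were higher in AAB and 142 in BBA. Calls more than 4-fold numbered 10 and 17. The AAB and BBA libraries did not overlap in 5857 genes (59.4%), so lack of overlap alone marks few genes out.

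**Figure D1:**
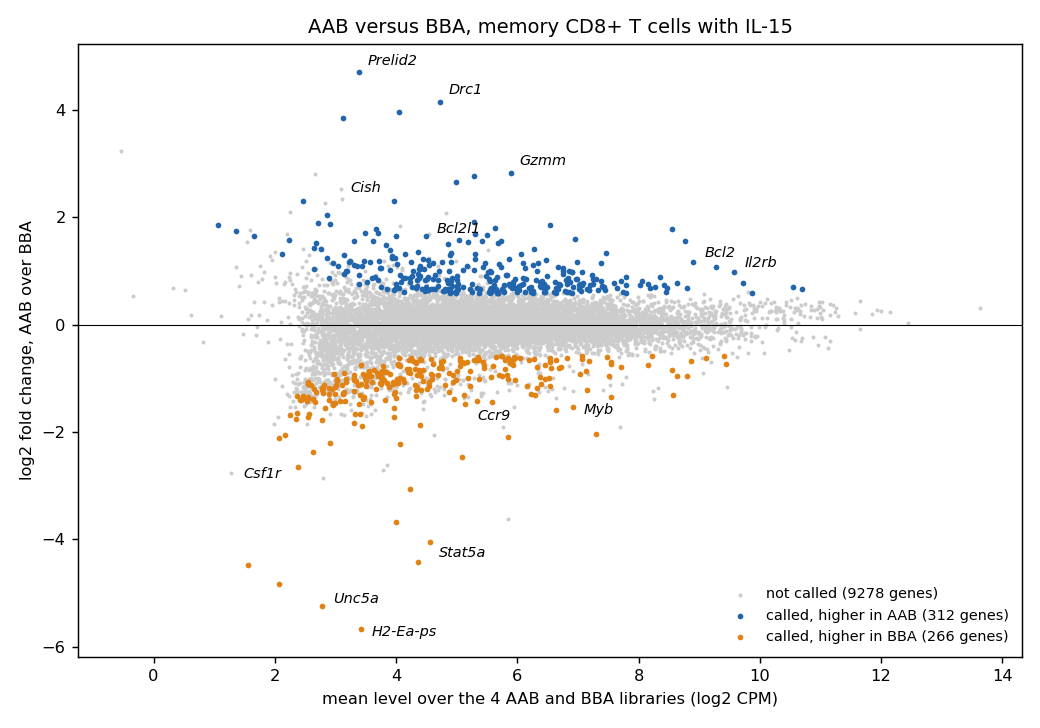
Each point is 1 of the 9856 genes tested in Tcm with IL-15; the horizontal axis is the mean level over the AAB and BBA libraries (log2 CPM) and the vertical axis the log2 fold change of AAB over BBA. Blue points are the 312 genes called higher in AAB, orange points the 266 called higher in BBA and grey points the genes not called; the calls run from Prelid2 at 4.71 to H2-Ea-ps at -5.67.

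The count of calls depended on which libraries were present. Without AAB replicate 2 it was 121, without BBA replicate 2 it was 164, without AAB replicate 1 it was 281 and without BBA replicate 1 it was 282, of which 110, 142, 236 and 241 were also called with all libraries. The biological coefficient of variation, the relative spread between replicates beyond counting error, was 11.9%.

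The WT libraries had no part in choosing the direction of these calls. Of the 312 genes higher in AAB, the WT mean lay above both AAB and BBA in 260 (83.3%), between them in 43 and below both in 9. Of the 266 genes higher in BBA, the WT mean lay below both in 226 (85%), between them in 37 and above both in 3. Most calls therefore ran in the order WT, AAB, BBA or its mirror image, with the cells that kept Stat5b nearer to WT. No test was made of this order, as AAB and BBA values chose the genes. Its share over all genes tested was not counted, so how far the calls depart from that share is not known.

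Survival genes and the IL-15 receptor were among the calls that were higher in AAB. Bcl2, which blocks the mitochondrial step of apoptosis, was at 675 and 649 CPM in AAB, 315 and 276 in BBA, and 1104 and 987 in WT. Both AAB libraries lay above both BBA libraries and below both WT libraries, and the log2 fold change was 1.16 (standard error 0.11, adjusted p = 0.00380). Bcl2l1, which encodes the related survival protein BCL-XL, was at 67.6 and 84.6 CPM in AAB, 26.3 and 26.9 in BBA, and 90.9 and 83.8 in WT, and its log2 fold change was 1.51 (standard error 0.13, adjusted p = 0.00380). Here AAB replicate 2 reached the WT range and BBA did not. These were the 2 called of 4 survival members tested. The other 2, Mcl1 at -0.02 (adjusted p = 0.95) and Bcl2a1b at -0.54 (adjusted p = 0.30), were not called. No gene of 7 tested that promote death in the same family was called: Bax, a pore-forming effector, was at 96.4 and 89.0 CPM in AAB and 72.5 and 76.7 in BBA (0.31, adjusted p = 0.0644), and Bak1, its partner, gave 0.43 (adjusted p = 0.0395), short of the 1.5-fold limit.

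Il2rb, which encodes the signalling chain shared by the IL-15 and IL-2 receptors, was at 974 and 1046 CPM in AAB, 519 and 505 in BBA, and 1287 and 1219 in WT (log2 fold change 0.98, standard error 0.09, adjusted p = 0.00380). It was the only call among 12 tested receptor chains and JAK kinases. Il2ra, the high-affinity IL-2 receptor chain, ran the other way at 2.70 and 4.50 CPM in AAB, 7.37 and 6.21 in BBA, and 13.6 and 12.7 in WT, but was not called (-0.91, standard error 0.29, adjusted p = 0.0936). Il7r, the IL-7 receptor chain, was at 545 and 344 CPM in AAB and 778 and 664 in BBA and was not called either (-0.70, adjusted p = 0.0725). None of the 5 other STAT genes tested was called, and their log2 fold changes ran from -0.14 to 0.12.

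The feedback inhibitor Cish was at 26.4 and 25.2 CPM in AAB, 6.34 and 4.28 in BBA, and 62.6 and 51.0 in WT. The log2 fold change, 2.30 with a standard error of 0.20 (adjusted p = 0.00380), was the largest among 18 tested feedback inhibitors and direct STAT5 targets. In all 5 of the 18 were called higher in AAB and 1 higher in BBA, against 3.17% and 2.7% of all genes tested. The counts were 1 and 0 without AAB replicate 1, 2 and 1 without AAB replicate 2, 2 and 0 without BBA replicate 1, and 3 and 0 without BBA replicate 2. Beside Cish, Osm, a cytokine of the IL-6 family (1.32), the phosphatase gene Dusp5 (1.03), Socs1 (0.88) and the kinase gene Pim2 (0.68) were higher in AAB, and Bcl6, a transcriptional repressor, was lower. Bcl6 was at 5.99 and 9.56 CPM in AAB, 18.8 and 22.2 in BBA, and 4.85 and 5.94 in WT (-1.40, standard error 0.26, adjusted p = 0.0245). Socs2 (0.18, adjusted p = 0.67) and Socs3 (0.51, adjusted p = 0.051) were not called.

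Promoter sequences of some of these genes hold the motif that STAT5 dimers bind. RefSeq windows of 300 bases (250 before the annotated start and 50 from it on, GRCm38.p6) were searched for TTCNNNGAA, which reads the same on both strands and of which overlapping matches were counted. Of the genes higher in AAB 237 had a window and 27 of them (11.4%) held the motif, against 17 of 199 (8.54%) of the genes higher in BBA and 642 of 7603 (8.44%) of all genes tested. Of all 27025 genes with a window, 9.55% held it. The shares are a description without a test. The windows shown are those of Cish (2 motifs, 0 and 11 bases after the annotated start), Gzmm (1 motif, 86 bases before it) and Bcl6 (3 motifs in 1 of its windows). They were chosen among the named genes whose windows held the motif. Cish and Gzmm have large differences in favour of AAB, and Bcl6 is the called exception among the targets. Drc1 (4.16) and Capn11 (3.86), with larger differences, and Bcl2, Myc and Osm were not among the named genes found with the motif. The capitals mark the fixed letters of the motif and the 3 small letters inside it are the free positions.
Cish, chr9:107296409-107296708, plus strand: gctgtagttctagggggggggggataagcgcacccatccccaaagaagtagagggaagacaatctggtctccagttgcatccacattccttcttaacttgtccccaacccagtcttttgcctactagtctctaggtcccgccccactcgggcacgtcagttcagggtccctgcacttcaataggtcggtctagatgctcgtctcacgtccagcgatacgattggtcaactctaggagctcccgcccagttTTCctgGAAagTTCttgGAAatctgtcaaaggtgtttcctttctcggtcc
Gzmm, chr10:79688770-79689069, plus strand: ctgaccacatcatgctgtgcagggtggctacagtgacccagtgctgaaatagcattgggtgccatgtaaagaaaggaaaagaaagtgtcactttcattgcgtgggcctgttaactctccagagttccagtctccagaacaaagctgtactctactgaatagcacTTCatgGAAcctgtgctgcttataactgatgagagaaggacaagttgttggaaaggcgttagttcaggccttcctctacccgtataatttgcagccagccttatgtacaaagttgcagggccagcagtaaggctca
Bcl6, chr16:23981234-23981533, minus strand: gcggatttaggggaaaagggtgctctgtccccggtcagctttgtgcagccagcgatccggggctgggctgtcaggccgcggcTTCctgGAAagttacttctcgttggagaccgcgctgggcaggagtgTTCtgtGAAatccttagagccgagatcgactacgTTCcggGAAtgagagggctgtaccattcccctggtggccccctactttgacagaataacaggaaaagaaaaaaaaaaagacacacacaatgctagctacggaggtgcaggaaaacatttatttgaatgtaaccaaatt
A match is a pattern of letters and not a measured binding site.

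Genes of cell growth that were called were nearly all higher in AAB. Myc, the transcription factor that drives ribosome production and metabolism in dividing cells, was at 144 and 174 CPM in AAB, 71.6 and 88.8 in BBA, and 389 and 444 in WT (0.99, standard error 0.14, adjusted p = 0.0138). Both mutants lay far below WT, and AAB lay above BBA. The other 9 members tested of the MYC and MAX network were not called. Ribosome biogenesis had 28 of 67 members called higher in AAB (41.8%) and 0 higher in BBA, with a median log2 fold change of 0.50 and 65 members above 0. Over all genes tested 3.17% were called higher in AAB and the median was 0.00. Grwd1, a chaperone of ribosome assembly, was at 32.1 and 35 CPM in AAB, 15.4 and 14.8 in BBA, and 66.0 and 64.0 in WT (1.15, standard error 0.11, adjusted p = 0.00380). Rrp12 (1.14), the nucleolar GTPase gene Gnl3 (1.0) and the RNA acetyltransferase gene Nat10 (0.99) followed. Without each of the 4 libraries in turn 13 to 20 members were called, and the median lay between 0.49 and 0.54.

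Fewer calls fell on ribosomal proteins and the translation machinery. The share called higher in AAB over all genes tested was 3.17%. Of 72 cytosolic ribosomal protein genes tested 0 were called by edgeR, yet 71 lay above 0 with a median of 0.31, as in Rpl10 at 1399 and 1263 CPM in AAB and 1126 and 1140 in BBA (0.23, adjusted p = 0.176). Of 76 mitochondrial ribosomal protein genes 1 was called, Mrps18b (0.62), and the median was 0.22. Translation factors had 3 of 45 called, Eif5a (0.78), Eif4a1 (0.68) and Eef1g (0.60), and aminoacyl-tRNA synthetases had 2 of 22, Aimp2 (0.86) and Rars (0.61). All 22 synthetase genes lay above 0. Without each of the 4 libraries in turn, 1 or 2 translation factors and 0 or 1 synthetase genes were called, with 0 without AAB replicate 2. Chaperones had 9 of 26 called, all higher in AAB, including the mitochondrial chaperones Hspa9 (0.81) and Hspd1 (0.75), the cytosolic chaperonin subunit Cct6a (0.73) and Hsp90ab1 (0.71). All 26 lay above 0, but no chaperone was called without AAB replicate 2 or without BBA replicate 2. Nuclear import genes had 5 of 26 called, among them Ipo4 (0.91), Ipo5 (0.85), Ranbp1 (0.85) and Ran (0.69), but only 1 without AAB replicate 2 and 1 without BBA replicate 2. None of the 42 proteasome genes was called, with 41 above 0 and a median of 0.34.

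**Figure D2:**
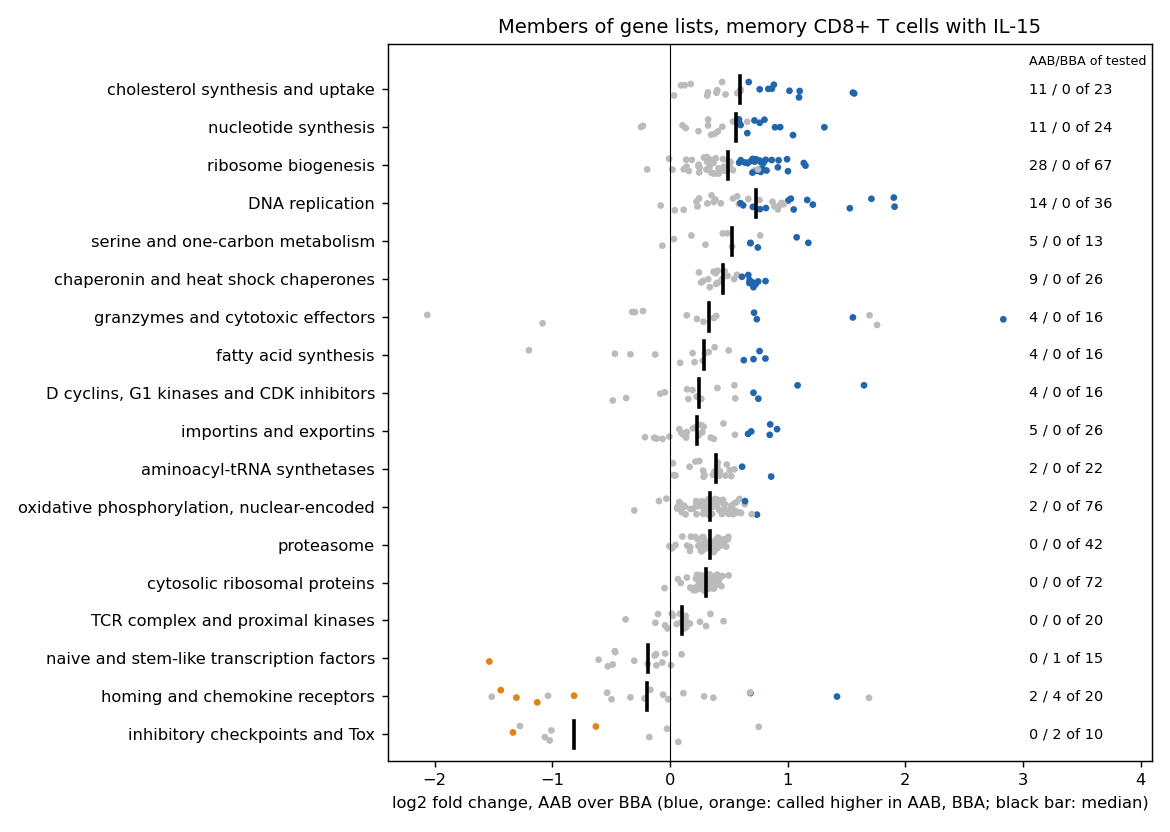
Each row is a gene list and each point a tested member, placed by its log2 fold change of AAB over BBA in Tcm with IL-15; blue and orange points are calls higher in AAB and in BBA, black bars are medians, and the figures at the right give calls in each direction of the members tested. Growth and biosynthesis lists sit to the right of 0, as with cholesterol synthesis at a median of 0.59, while inhibitory checkpoints sit to the left at -0.82 (-0.37 without BBA replicate 1).

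Calls in several biosynthetic pathways were all higher in AAB. Nucleotide synthesis had 11 of 24 members called higher in AAB (45.8%, median 0.56). Nme1, a nucleoside diphosphate kinase gene, was at 104 and 86.6 CPM in AAB, 39.7 and 37.3 in BBA, and 183 and 133 in WT (1.31, standard error 0.17, adjusted p = 0.0100), and Ctps (1.05), Impdh2 (0.94) and Nme2 (0.89) were also called. Nme1 and Nme2 are near-identical neighbours that can share reads. Serine and one-carbon metabolism, which feeds nucleotide synthesis, had 5 of 13 called, with Psat1, an enzyme of serine synthesis, at 36.6 and 46.4 CPM in AAB, 20.7 and 16.2 in BBA, and 69.1 and 58.9 in WT (1.18, standard error 0.17, adjusted p = 0.0147), and Mthfd1 (1.08), Shmt2 (0.75), Sfxn1 (0.69) and Mthfd2 (0.68) behind it. Without each of the 4 libraries in turn, 2 to 7 nucleotide synthesis genes and 1 to 5 one-carbon genes were called.

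Cholesterol synthesis and uptake had 11 of 23 members called higher in AAB (47.8%), and all 23 lay above 0 with a median of 0.59. Idi1, which makes an isoprenoid precursor, was at 62.3 and 65.2 CPM in AAB, 23.3 and 20.2 in BBA, and 89.8 and 68.8 in WT (1.55, standard error 0.15, adjusted p = 0.00452). Both AAB libraries lay below both WT libraries and far above both BBA libraries. Sqle (1.10), Cyp51 (1.10) and Fdps (1.02), which encode further enzymes of the pathway, were called too. Srebf2, the transcription factor that induces these genes, was not (0.09, adjusted p = 0.67). Without each of the 4 libraries in turn 4 to 8 members were called, and the median stayed between 0.56 and 0.62. Fatty acid synthesis had 4 of 16 called, Fasn (0.81), Acaca (0.76), Scd2 (0.71) and Acsl5 (0.63), and none without AAB replicate 2 or BBA replicate 2.

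Sugar and amino acid use differed in single genes. Over all genes tested 3.17% were called higher in AAB and 2.7% in BBA. Oxidative phosphorylation, below, had 2.63% called higher in AAB, under the share over all genes. Of 22 glycolysis genes 4 were called higher in AAB, Tpi1 (0.98), Eno1 (0.67), Pgk1 (0.61) and the lactate transporter gene Slc16a1 (0.61), and 1 was higher in BBA, the lactate dehydrogenase gene Ldhb at 4.28 and 4.19 CPM in AAB and 10.1 and 13.1 in BBA (-1.46, standard error 0.24, adjusted p = 0.0196). Slc7a5, which carries leucine into activated T cells, was at 52.2 and 65.4 CPM in AAB, 26.1 and 29.9 in BBA, and 149 and 152 in WT (1.07, standard error 0.13, adjusted p = 0.00811), and Slc7a1, an arginine carrier gene, gave 0.60 (2 of 12 amino acid transporters called). Without each of the 4 libraries in turn, 1 or 2 glycolysis genes were called higher in AAB and 1 or 2 amino acid transporters. Ldhb was called in 1 of these 4 fits, that without BBA replicate 1. Oxidative phosphorylation had 2 of 76 called (median 0.34, 73 above 0), 1 without BBA replicate 1 and 0 without each of the other libraries, the TCA cycle 0 of 24 and the pentose phosphate pathway 0 of 8. Among mTORC1 regulators and autophagy genes 0 of 30 were called and the median was -0.05.

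Called transcripts for DNA replication were all higher in AAB, and AAB replicates differed from each other here. Of 36 replication genes 14 (38.9%) were called higher in AAB, with a median of 0.73. Uhrf1, a factor for maintenance of DNA methylation in S phase, was at 39.7 and 83.9 CPM in AAB, 16.2 and 16.8 in BBA, and 112 and 114 in WT (1.91, standard error 0.32, adjusted p = 0.0201). The 2 AAB libraries thus differed by more than 2-fold from each other, and both lay above BBA and below WT. AAB replicate 2 was also the higher of the pair, and WT was higher still, for Cdc6, Dtl and Chek1, a checkpoint kinase gene outside this list. Cdc6, which loads the replicative helicase, was at 7.96 and 12.8 CPM in AAB and 2.56 and 2.98 in BBA (1.90). Dtl was at 11.4 and 22.8 against 5.93 and 4.60 CPM (1.71), and Chek1 at 6.18 and 12.1 against 1.84 and 1.86 CPM (2.31). Mcm2 to Mcm6 were called at 0.62 to 1.21. Without AAB replicate 2, only 2 members were called, with a median of 0.44, without BBA replicate 1 there were 3, without BBA replicate 2 there were 0 and without AAB replicate 1 there were 13.

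Of 16 regulators of the G1 phase 4 (25%) were called, all higher in AAB, against 3.17% of all genes tested, and the median was 0.25. Ccnd2, the D cyclin gene that is a known STAT5 target, was at 834 and 845 CPM in AAB, 397 and 395 in BBA, and 947 and 893 in WT (1.08, standard error 0.09, adjusted p = 0.00380). Ccnd3 (0.75) and Cdk4 (0.71) were called with it. E2f1, which encodes a driver of S phase genes, was at 19 and 29.4 CPM in AAB and 7.26 and 8.15 in BBA (1.65), again with AAB replicate 2 the higher. Without AAB replicate 2 there were 2 calls and a median of 0.15. Of the mitosis genes 16 of 30 passed the filter, and 1 was called, higher in BBA and in none of the 4 fits without 1 library: Cenpa, the centromere histone gene, at 17.2 and 15.9 CPM in AAB and 32.9 and 30.8 in BBA (-0.95, standard error 0.17, adjusted p = 0.0226).

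**Figure D3:**
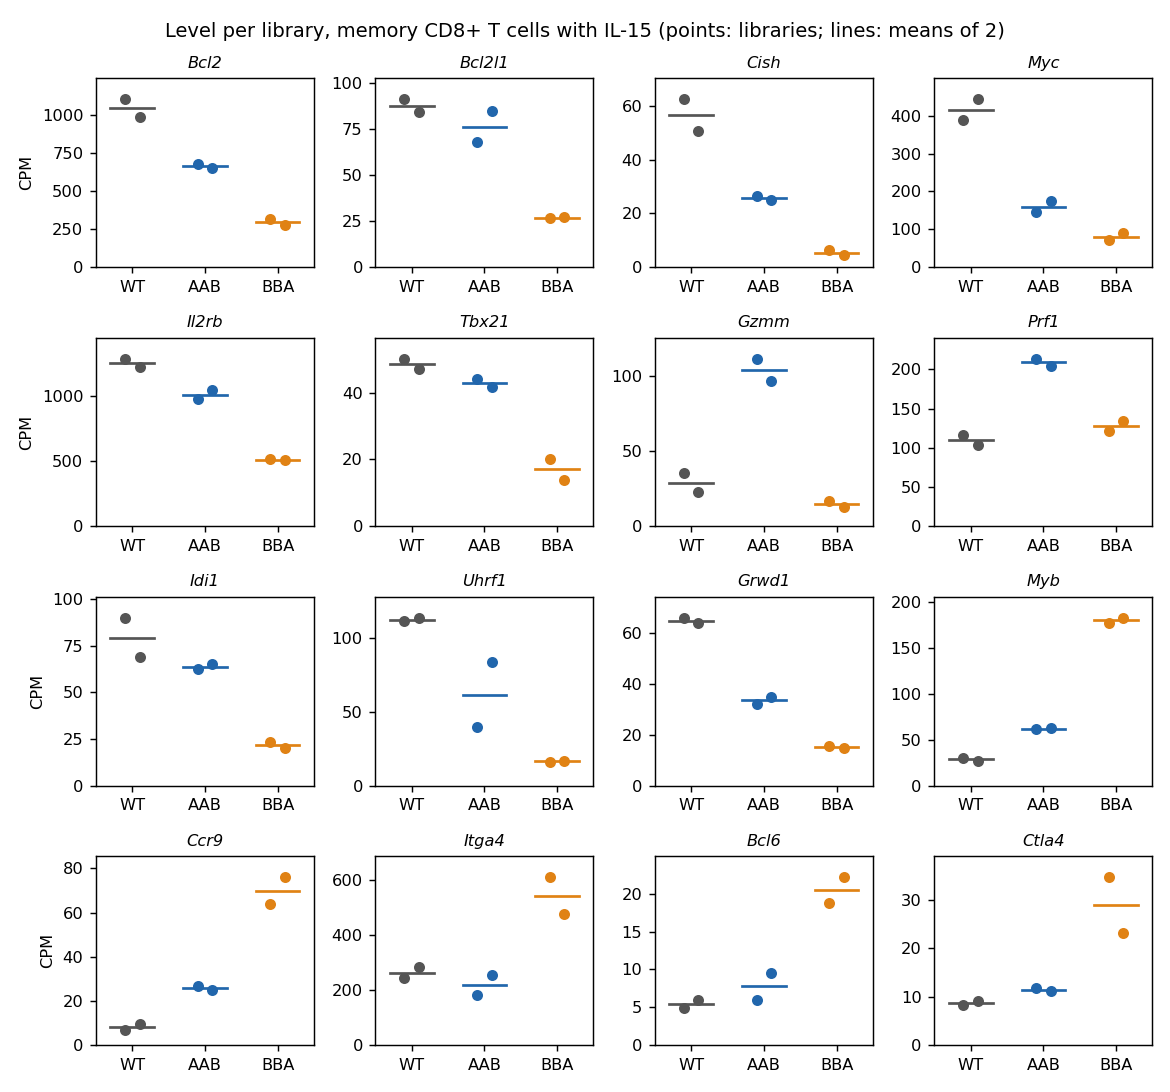
Each panel shows 1 gene in Tcm with IL-15, with the level in CPM on the vertical axis from 0, points for the 2 libraries of each genotype and lines for their means. Genes higher in AAB such as Bcl2 and Idi1 step down from WT through AAB to BBA, Gzmm is highest in AAB at 111 and 96.6 CPM, and Myb and Ccr9 step up from WT to BBA.

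Of the cytotoxic program, 4 of 16 members (25%) were called with all libraries, all higher in AAB, against 3.17% of all genes tested. Fewer were called higher in AAB without each of the 4 libraries in turn, and calls were not all higher in AAB in every fit. Members ran from -2.06 to 2.83, with 11 above 0 and 5 below. The median log2 fold change was 0.33, and between 0.17 and 0.85 without each of the 4 libraries in turn. Gzmm, which encodes granzyme M, was at 111 and 96.6 CPM in AAB, 16.7 and 12.7 in BBA, and 35.1 and 22.7 in WT (2.83, standard error 0.23, adjusted p = 0.00380). AAB lay above WT as well as above BBA. Prf1, the pore-forming perforin gene, was also highest in AAB, at 214 and 205 CPM in AAB, 121 and 134 in BBA, and 116 and 104 in WT (0.71, standard error 0.10, adjusted p = 0.0112). Tnf, at 14.7 and 14.6 CPM in AAB, 7.06 and 3.15 in BBA, and 69.6 and 64.4 in WT (1.55), stood below WT in both mutants, and Nkg7, a granule gene, was the fourth (0.74). Granzymes A and B were not called. Gzmb was at 1.45 and 1.60 CPM in AAB, 3.17 and 0.807 in BBA, and 28.0 and 21.5 in WT (-0.32, standard error 0.56, adjusted p = 0.744), so the mutants overlapped and both lay under WT. Gzma was at 8.55 and 5.43 CPM in AAB, 2.76 and 1.61 in BBA, and 4.50 and 8.23 in WT (1.70, standard error 0.45, adjusted p = 0.0614).

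Transcription factors of the T cell state split between the genotypes. The shares called over all genes tested were 3.17% higher in AAB and 2.7% higher in BBA. Tbx21, which encodes T-bet, a driver of effector and memory genes, was at 44.0 and 41.6 CPM in AAB, 20.2 and 13.9 in BBA, and 50.2 and 47.2 in WT (1.34, standard error 0.17, adjusted p = 0.00930). Bhlhe40 (1.22) and Nfil3 (1.31) were called higher in AAB as well. Myb, a factor of stem-like T cells, was at 62.0 and 62.5 CPM in AAB, 178 and 183 in BBA, and 30.5 and 27.1 in WT, and at -1.53 (standard error 0.09, adjusted p = 0.000846) it was the only call among 15 naive and stem-like factors. Tcf7 (-0.47, adjusted p = 0.0402) and Lef1 (-0.47, adjusted p = 0.0456) fell short of the 1.5-fold limit, and none of the other 12 was called. Ikzf2, the Helios gene, was at 4.74 and 9.86 CPM in AAB, 25.2 and 23 in BBA, and 10.6 and 6.62 in WT (-1.72, standard error 0.36, adjusted p = 0.0331), and Rora (-0.96) was called with it. Of 15 effector and memory factors 3 were called higher in AAB and 2 in BBA, against 1 or 2 and 0 or 1 without each of the 4 libraries in turn.

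Homing receptors were called in both directions, 2 of 20 higher in AAB and 4 in BBA, against 3.17% and 2.7% of all genes tested. Higher in AAB there were 4 without BBA replicate 1 and 0 without each of the other 3 libraries, and higher in BBA 2 or 3. Ccr9, which guides T cells to the gut, was at 26.6 and 25.0 CPM in AAB, 63.7 and 75.9 in BBA, and 6.89 and 9.28 in WT (-1.44, standard error 0.15, adjusted p = 0.00581). Itga4, the α4 integrin gene, was at 183 and 256 CPM in AAB, 609 and 476 in BBA, and 243 and 282 in WT (-1.31, standard error 0.19, adjusted p = 0.0138), so that here AAB and WT overlapped and BBA stood apart. Cx3cr1 (-1.13) and Cxcr4 (-0.81) were the others higher in BBA. Cxcr3, a receptor for interferon-induced chemokines, was at 366 and 352 CPM in AAB, 241 and 206 in BBA, and 270 and 244 in WT (0.68), and was higher in AAB. The lymph node receptor gene Ccr7 was not called (-0.01, adjusted p = 0.94).

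Of 10 inhibitory checkpoint genes and Tox relatives, 2 (20%) were called and both were higher in BBA, against 2.7% of all genes tested. None was called without AAB replicate 1, AAB replicate 2 or BBA replicate 1, and 1 without BBA replicate 2, and the median of -0.82 was -0.37 without BBA replicate 1. Ctla4 was at 11.8 and 11.1 CPM in AAB, 34.7 and 23.1 in BBA, and 8.18 and 9.09 in WT (-1.33, standard error 0.21, adjusted p = 0.0172), and Tox was at 24.9 and 27.4, 45.5 and 35.6, and 13.5 and 15.6 CPM (-0.63, adjusted p = 0.0479). Pdcd1 (-1.06, adjusted p = 0.37), Lag3 (-1.01, adjusted p = 0.085) and Tigit (-1.02, adjusted p = 0.14) were not called. Ctla4, Ikzf2 and St8sia6 also belong to the list of CD4 lineage markers. Of its 7 members 3 were called higher in BBA, where the share over all genes tested was 2.7%. Cd4 and Cd40lg held too few reads to be tested. The sum of the list was 44.5 and 54.6 CPM in AAB and 91.9 and 77.3 in BBA. Its defining members did not move with them: Cd4 was at 1.51 and 3.14 CPM in AAB and 1.33 and 1.21 in BBA, and Foxp3 at 13.9 and 14.1 in AAB and 11.6 and 11.2 in BBA. Nothing of the T cell receptor complex and its kinases was called (0 of 20), as with Cd3e at 434 and 498 CPM in AAB and 414 and 465 in BBA (0.08, adjusted p = 0.638), and of the 5 NK receptors that passed the filter 0 were called.

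Interferon-induced genes were called in small numbers, all higher in AAB, where the share over all genes tested was 3.17%. Of 25 type I interferon-stimulated genes 3 were called: Usp18, a brake on interferon signalling, at 41.8 and 33.1 CPM in AAB, 19.2 and 14.2 in BBA, and 15.9 and 13.7 in WT (1.17), Oas3 (1.12) and Bst2 (0.81). Of 16 interferon-induced GTPases Gbp11 (1.86), Gbp7 (0.86) and Gbp4 (0.73) were called. Gbp11, annotated as a polymorphic pseudogene, held 54 and 49 reads in AAB and 9 and 11 in BBA, so its fold rests on few counts. It was at 3.55 and 3.02 CPM in AAB, below 16.0 and 29.1 in WT, and passed the filter on low counts through WT. The GTPases had 0 calls without AAB replicate 2 and 1 or 2 without each of the other libraries. Isg15 (0.40, adjusted p = 0.33) and Ifit1 (-0.02, adjusted p = 0.97) were not.

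Beside Stat5a and Cish, calls of more than 4-fold were mostly in genes outside the lists. Among genes higher in AAB, Prelid2 was at 32.8 and 7.52 CPM in AAB, 0.819 and 0.726 in BBA, and 4.79 and 4.02 in WT (4.71, standard error 0.79, adjusted p = 0.0200), with AAB replicate 1 more than 4 times replicate 2. Drc1, which encodes a component of motile cilia, was at 42.8 and 56.9 CPM in AAB, 2.66 and 2.90 in BBA, and 82.7 and 61.8 in WT (4.16, standard error 0.24, adjusted p = 0.000846). The others that lead were 5830411N06Rik (3.96), the calpain gene Capn11 (3.86), Gm6548 (2.77), Ms4a6d (2.65), Chek1 (2.31) and the clock-related gene Arntl2 (2.04). Capn11 stood apart from WT, at 10.6 and 22.1 CPM in AAB and 1.13 in each BBA library against 0.701 and 0.804 in WT.

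Among genes higher in BBA, H2-Ea-ps, the Eα gene of MHC class II, is annotated as a polymorphic pseudogene. It was at 0.526 and 0.308 CPM in AAB, 14.3 and 27.7 in BBA, and 0.234 and 0.371 in WT (-5.67, standard error 0.49, adjusted p = 0.00380). AAB held 8 and 5 reads, so the size of this fold rests on few counts. Unc5a, a netrin receptor gene, was at 0.526 and 0.185 CPM in AAB and 16.6 and 10.2 in BBA (-5.25, standard error 0.55, adjusted p = 0.00727). It was 0 in both WT libraries and held 8 and 3 reads in AAB, so this fold rests on few counts too. Unc5a and H2-Ea-ps passed the filter on low counts through the BBA libraries where they were high. The amino acid transporter gene Slc6a19 (-3.06), Rab6b (-3.68), Arhgap31 (-2.46) and C130046K22Rik (-2.37) followed. Csf1r, the macrophage growth factor receptor gene and a myeloid marker, was at 0.921 and 1.91 CPM in AAB, 10.7 and 7.26 in BBA, and 0.876 and 0.433 in WT (-2.65, standard error 0.47, adjusted p = 0.0215). It was the only call among 12 myeloid markers, some of which, such as Cd14 and Ccr1, held too few reads to be tested. Lyz2 was at 5.92 and 15.4 CPM in AAB and 33.0 and 11.9 in BBA.

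Several of these large differences lay in 1 part of the genome. Chromosome 17, which holds 5.48% of the tested genes that could be placed, carried 8 of the 27 calls of more than 4-fold. Of these 8, 5 were histocompatibility genes or lay among them and were higher in BBA: H2-Ea-ps, H2-Q2 (-2.22), Gm11127 (-2.21), 2410017I17Rik (-4.84) and Gm8909 (-4.42) started between 34341959 and 36164443 of GRCm38, while Capn11 and Gm6548 started at 45630204 and 78850792 and were higher in AAB. The last was Vmn2r96, a vomeronasal receptor gene, which was higher in BBA (-2.10). For 2410017I17Rik AAB held 4 and 5 reads, so the size of its fold rests on few counts. Class I genes of this region and pseudogenes such as Gm6548 have near-identical copies, and reads could have been divided between them in counting. H2-Ea-ps was also lower in AAB elsewhere, at -7.61 (Tcm, no cytokine), -4.46 (Tnv, IL-15) and -5.12 (Tem, IL-15). H2-Q2, Gm11127, 2410017I17Rik and Gm8909 were below 0 there too wherever measured. The study describes its strains as sharing a uniform background, and counts per gene do not show inherited sequence. Whether the paralog that remained, counting or another difference between the mice gave these values was not tested. In calls of any size chromosome 17 was not first: 7.72% of its tested genes were called, against 8.96% on chromosome 19 and 3.59% on chromosome 3. Within 500 kb of Stat5a and Stat5b themselves 27 other genes were tested, with a median of 0.11. Of these 1 was called higher in AAB, the acetyltransferase gene Kat2a (0.64), and 1 higher in BBA, Ghdc (-0.77). Both counts are near the shares over all genes tested, 3.17% and 2.7%. Vmn2r96, Ghdc, Kat2a and Smc6, below, were chosen for mention after their values were seen.

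The same comparison gave far fewer calls in the other cell states and cultures. In Tcm without cytokine 4 of 10265 genes were called (0.039%): Stat5a, H2-Ea-ps, 5830411N06Rik and Smc6. In Tnv with IL-15 there were 7 of 10021 (0.0699%), among them Stat5a, Rab6b, Gm8909, Gm6548 and Smc6, and in Tem with IL-15 1 of 10034 (0.00997%), Stat5a. At an unadjusted p under 0.05 there were 486, 673 and 745 genes. The spread between replicates was wider there, with biological coefficients of variation of 17.5%, 18.1% and 29.1% against 11.9%, so counts of calls cannot be compared directly. Smc6, a gene of chromosome structure, was at 539 and 624 CPM in AAB, 167 and 168 in BBA, and 501 and 529 in WT in Tcm with IL-15 (1.79, standard error 0.10, adjusted p = 0.000846), and its log2 fold change was 1.92 in Tcm without cytokine, 1.99 in Tnv and 1.58 in Tem with IL-15.

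Log2 fold changes of the genes called in Tcm with IL-15 had the same sign in the other settings in most cases, with medians nearer to 0. These genes were chosen by the size of their difference in Tcm with IL-15, which moves their medians there away from 0. Medians nearer to 0 elsewhere therefore do not measure a smaller difference between the genotypes. Of the genes called higher in AAB in Tcm with IL-15, 291 of 303 measured (96%) were also above 0 in Tem with IL-15 with a median of 0.50, against 273 of 309 (88.3%) and a median of 0.21 in Tcm without cytokine and 226 of 287 (78.7%) and 0.19 in Tnv with IL-15. Of the genes called higher in BBA, 256 of 258 (99.2%, median -0.84), 192 of 230 (83.5%, median -0.32) and 239 of 260 (91.9%, median -0.67) lay below 0. Over all genes tested in these settings 47.5%, 48.8% and 52.2% lay above 0.

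The difference of the genotype effect between settings was tested as an interaction over 12 libraries. Tcm with IL-15 minus Tcm without cytokine gave 0 calls of 10469 genes (0%) by edgeR's quasi-likelihood test, 742 genes at an unadjusted p under 0.05 and 71 calls by DESeq2. Tcm minus Tem, both with IL-15, gave 0 of 10448 (0%), with 312 at an unadjusted p under 0.05 and 3 calls by DESeq2. Tcm minus Tnv, both with IL-15, gave 1 of 10321 (0.00969%), with 879 at an unadjusted p under 0.05 and 51 calls by DESeq2. The call was Gzmm, whose values in Tnv were 1.25 and 1.49 CPM in AAB and 3.27 and 2.45 in BBA, so that the genotypes stood in the opposite order there, at a low level of 31 and 43 reads per genotype. The call was lost without each of the 8 AAB and BBA libraries in turn, with adjusted p from 0.0901 to 0.447. Gzmm did not pass the filter within Tnv and entered the test through the Tcm libraries where it was high, so the call gives no support for a difference between the cell states.

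**Figure D4:**
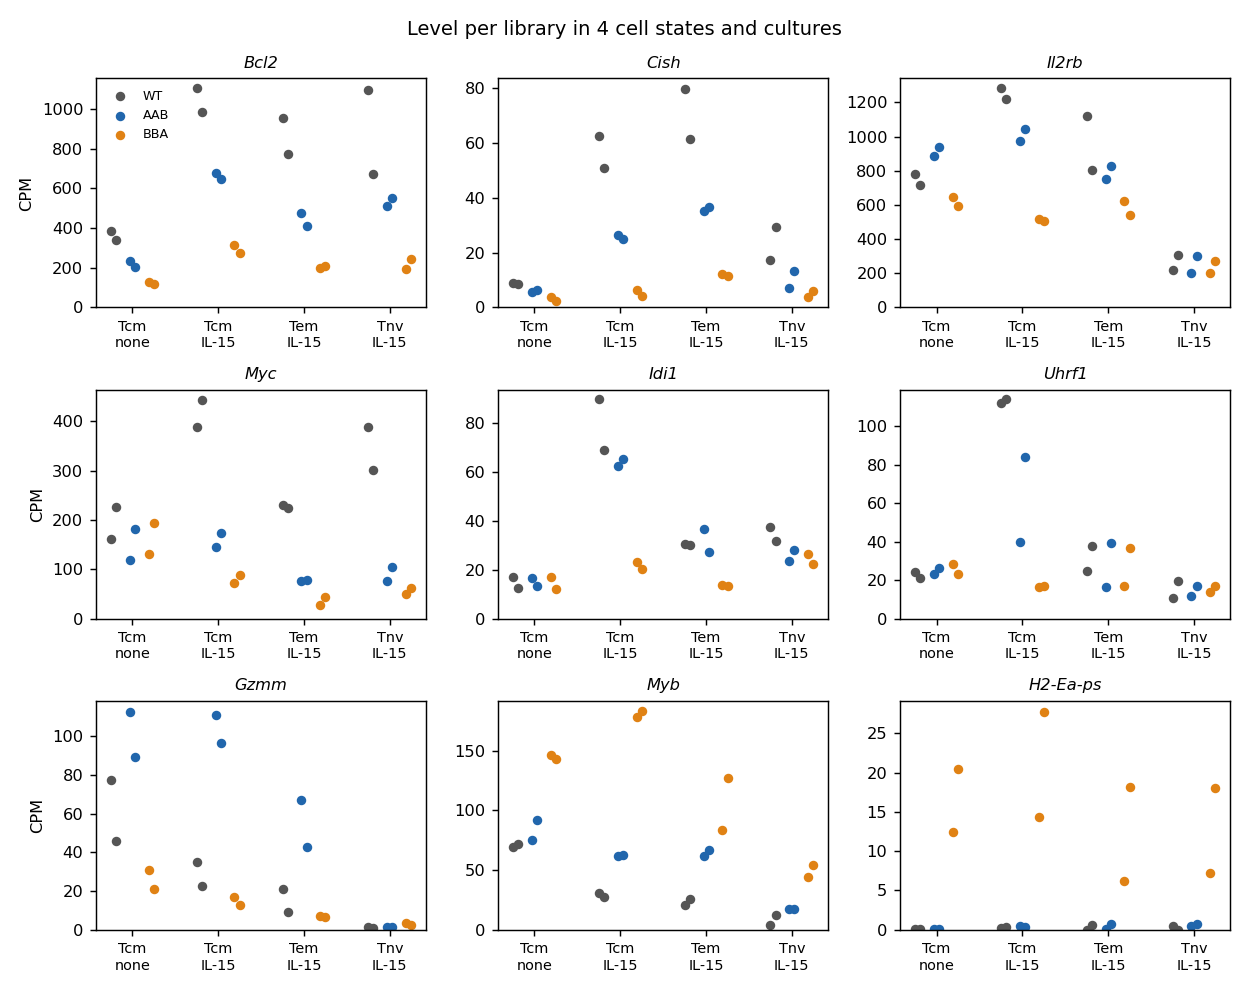
Each panel shows 1 gene, with the level in CPM on the vertical axis from 0, the 4 combinations of cell state and culture on the horizontal axis, and 2 points for the libraries of each genotype (grey WT, blue AAB, orange BBA). Bcl2 shows AAB above BBA in all 4, Idi1 and Uhrf1 show AAB above BBA in Tcm with IL-15 but not in Tcm without cytokine, and H2-Ea-ps is high in the BBA libraries of all 4. For Idi1 and Uhrf1 the difference between Tcm with IL-15 and Tcm without cytokine did not pass the adjusted test.

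Single genes show these patterns as values. Bcl2 without cytokine was at 232 and 204 CPM in AAB, 126 and 117 in BBA, and 385 and 340 in WT (0.84), so levels were lower than with IL-15 in each genotype while the order was the same. Cish without cytokine was at 5.75 and 6.36 CPM in AAB and 3.84 and 2.47 in BBA (0.95), and in Tem with IL-15 at 35.3 and 36.6 and at 12.3 and 11.4 (1.60). Neither difference from Tcm with IL-15 passed the adjusted test.

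Myc, Idi1 and Uhrf1 overlapped between AAB and BBA without the cytokine. The differences of their log2 fold changes from Tcm with IL-15 did not pass the adjusted test (adjusted p = 0.499, 0.175 and 0.175, interaction term of the edgeR quasi-likelihood fit). Myc in Tcm without cytokine was at 120 and 183 CPM in AAB and 131 and 193 in BBA (-0.10), and the groups overlapped. Idi1 there was at 16.7 and 13.5 CPM in AAB and 17 and 12.1 in BBA (0.06), so that the groups overlapped, at a level below that of any Tcm library with IL-15. In Tem with IL-15 Idi1 was at 36.9 and 27.1 CPM in AAB and 13.8 and 13.2 in BBA (1.25). Uhrf1 was at 23.2 and 26.4 CPM in AAB and 28.2 and 23.3 in BBA without cytokine (-0.05) and at 16.3 and 39.5 against 16.9 and 36.8 in Tem with IL-15 (0.05), and the groups overlapped in both. Il2rb, by contrast, was at 885 and 942 CPM in AAB and 648 and 593 in BBA without cytokine (0.56).

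**Figure D5:**
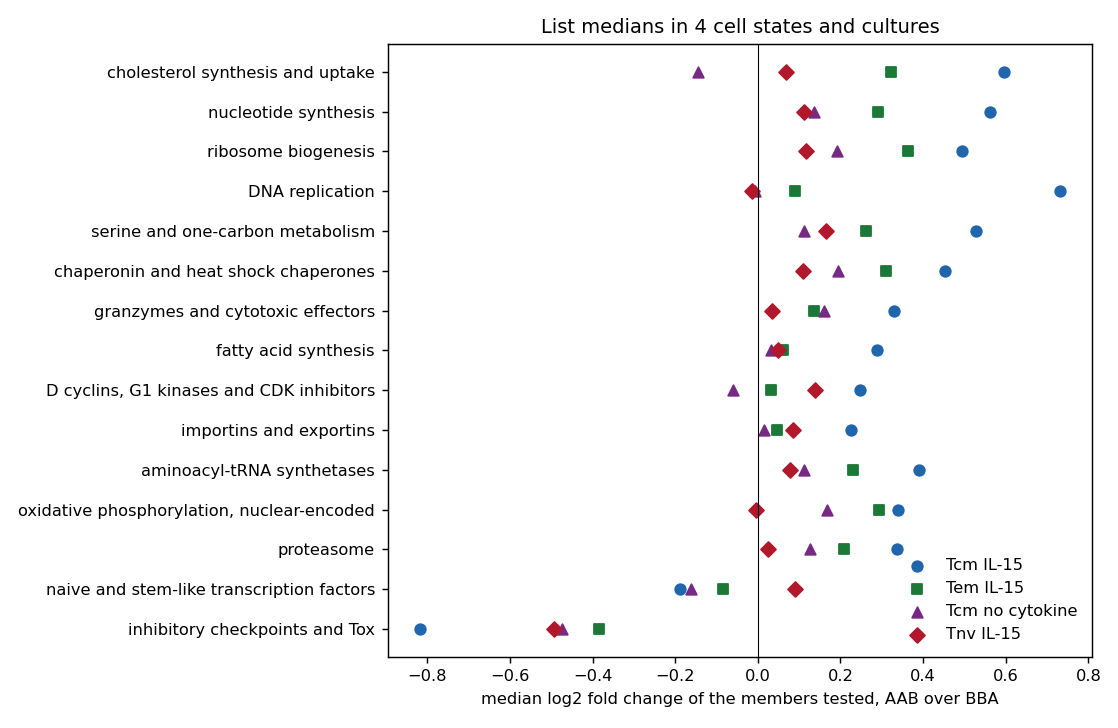
Each row is a gene list, and the symbols give the median log2 fold change of AAB over BBA of its tested members in Tcm with IL-15 (circles), Tem with IL-15 (squares), Tcm without cytokine (triangles) and Tnv with IL-15 (diamonds). DNA replication reaches 0.73 in Tcm with IL-15 and lies between -0.01 and 0.09 elsewhere, and cholesterol synthesis falls from 0.59 in Tcm and 0.32 in Tem with IL-15 to -0.14 in Tcm without cytokine.

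Across lists, the medians of Tem with IL-15 lay between those of Tcm with IL-15 and those of Tcm without cytokine for ribosome biogenesis (0.50, 0.36 and 0.19), nucleotide synthesis (0.56, 0.29 and 0.14), cholesterol synthesis (0.59, 0.32 and -0.14) and chaperones (0.45, 0.31 and 0.19). In Tnv with IL-15 the same lists had medians of 0.12, 0.11, 0.07 and 0.11. Cytosolic ribosomal protein genes behaved otherwise, with 0.31 in Tcm with IL-15, 0.40 without cytokine and -0.05 in Tnv. These medians are descriptions, and no test of a list was made.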

How the data were processed

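Libraries were poly(A)+ RNA of sorted CD8+ T cells, sequenced by the authors. The authors deposited raw read counts per gene symbol. The study's methods name mm10, tophat2, cufflinks and htseq-count for alignment and counting, while the submitters' processing notes name mm9 with TopHat2, Cufflinks and HTSeq. The difference was not resolved, and neither the annotation nor strand handling in counting is given in the sources used here. Reads of near-identical or overlapping genes may therefore be divided or shared.

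Groups came from the labels. Counts were filtered with a re-implementation of the HTSFilter Jaccard index (100 thresholds from 1 to 200, loess span 0.3), which set a threshold of 105 normalized counts. A gene was kept where its highest library exceeded this threshold, so a gene could enter through 1 genotype only. TMM scaling and edgeR's quasi-likelihood test followed (edgeR 4.0.16 in R 4.3.3, limma 3.58.1), fitted on the 6 Tcm IL-15 libraries of WT, AAB and BBA, with Benjamini-Hochberg adjustment. Differences between settings were fitted on 12 libraries. DESeq2 1.42.0 was an alternative. Standard errors were derived from the fold change and its F statistic. CPM values carry counting error that is larger in BBA, with 3 counts equal to 0.307 and 0.242 CPM there and 0.197 and 0.185 in AAB.

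Tested on simulated counts for AAB versus BBA in Tcm with IL-15 over 9856 genes, the procedure recovered 150 of 200 changed genes (33.3% at 1.5-fold, 86.9% at 2-fold and 100% at 4-fold) with 17 false calls. For the difference from Tcm without cytokine, over 10469 genes, it recovered 87 of 200 with 6 false calls. Gene lists and the rule for named genes (both Stat5 genes, genes the study's text names for STAT5, the 12 largest called differences in each direction with mean normalized counts of 50 or more and no overlap, up to 4 called members per list or the first 2 where none was called, and up to 5 called differences between settings in each direction) were chosen with earlier results of these data known. Members named as not called, and others so marked, were chosen after their values were seen. Some genes that the rule names are not reported here. Positions come from GENCODE M21 (GRCm38), and promoter sequences from RefSeq (GRCm38.p6).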

Additional observations from a re-analysis of the deposited data

Results flagged for a closer look

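Gzmm, which encodes granzyme M, passed the test of a difference between Tcm and Tnv in AAB against BBA, but did not pass the filter on low counts within Tnv and entered the test through the Tcm libraries where it was high. The call therefore gives no support for a difference between the cell states. The log2 fold change of AAB over BBA with IL-15 was larger in Tcm than in Tnv by 3.90 (standard error 0.43, adjusted p = 0.0432, interaction term of the edgeR quasi-likelihood fit over 12 libraries). In Tcm both AAB libraries lay above both BBA libraries, and in Tnv, where the gene was at 1.25 and 1.49 CPM in AAB and 3.27 and 2.45 in BBA, both lay below. Gzmm was not called with the quasi-likelihood method of edgeR 4 or in 1 fit over all 48 CD8 libraries, nor without any 1 of the 8 AAB and BBA libraries (adjusted p 0.0901 to 0.447).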

How the results depend on the processing

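With DESeq2 size factors, DESeq2, the quasi-likelihood method of edgeR 4 or no WT libraries, 579, 791, 597 and 563 genes were called in Tcm with IL-15, against 578. Other settings moved the count: filterByExpr gave 932 (609 higher in AAB, 323 in BBA), no filter 1869 (927 and 942, with the median of all genes at -0.21), 1 fit over all 48 CD8 libraries 260 (192 and 68), a replicate block 1066 (425 and 641), Bonferroni adjustment 11 (8 and 3) and a 2-fold limit 248 (106 and 142). Leaving out 1 library gave 121 to 593. Of the 104 named genes called, 58 lost the call without AAB replicate 2, 52 without BBA replicate 2, 33 without AAB replicate 1, 32 without BBA replicate 1 and 37 in the fit over 48 libraries. None of the 104 changed direction under these alternatives, which is no separate support for the directions. AAB and BBA libraries did not overlap for any call, so leaving out 1 library had little room to reverse a direction. The other settings used the same AAB and BBA libraries again. Replicate numbers are shared between genotypes, but deviations of same-numbered libraries correlated at 0.331 between AAB and BBA, 0.430 between AAB and WT and 0.361 between BBA and WT. With 2 numbers and no label that ties them to a trial, they were taken as shared numbers only, and whether they pair the libraries was not settled. Without cytokine, no filter gave 169 calls, DESeq2 68 and the replicate block 95, against 4, and leaving out 1 library gave 2 to 8. In Tnv the counts were 16 with filterByExpr, 106 with no filter, 65 with DESeq2, 17 without WT, 14 with the replicate block and 3 with Bonferroni, against 7, and 0 to 47 without 1 library. In Tem they were 107 with no filter, 168 with DESeq2, 2 with edgeR 4, 39 in 1 fit over 48 libraries, 0 without WT and 249 with the replicate block, against 1, and 0 without 1 library. For the difference from Tcm without cytokine, no filter gave 37, DESeq2 71 and the replicate block 70 (52 and 18), against 0, and leaving out 1 library gave 0 to 4. For the difference from Tnv, no filter gave 15, DESeq2 51, edgeR 4 and the fit over 48 libraries 0, and the replicate block 5, against 1, and leaving out 1 library gave 0 to 1. For the difference from Tem, DESeq2 gave 3, against 0. The cause was not tested for any of these. Depth limits low genes most in BBA, and 2 libraries per genotype limit every comparison.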

Other observations

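Genes outside the lists also differed between AAB and BBA in Tcm with IL-15, and were chosen after their values were seen. Pydc3, a pyrin-domain gene, gave -2.04, and Pcsk1, a proprotein convertase gene, gave -4.49, in each case lower in AAB than in BBA. Pcsk1 was at 0.329 and 0.185 CPM in AAB and at 0.117 and 0.124 in WT, so the fold rests on few reads.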
